A study of Mus musculus with 3 samples.

Results

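Regions of open chromatin that lay between protein-coding genes and were called in all 3 libraries are described here. Peaks of the 3 deposited lists on chromosomes 1 to 19 were merged where they shared at least 1 bp, and a merged region was kept if it held a peak of every list and touched neither a RefSeq protein-coding gene span nor the 1 kb outside its ends. This gave 9252 regions of 55946 merged regions in all, and of 31886 that held a peak of every list. The regions were chosen by the presence of a called peak in each library, so their being open in all is not a result. The assay was ATAC-seq, which reads accessible DNA by letting a transposase cut and tag it, and the cells were 3 fractions of mouse CD4+ T cells. Naive CD4+ T cells from the spleens of CBir1 transgenic mice, whose transgenic receptor recognises a bacterial flagellin, were stained with CellTrace Violet, a dye diluted at each division, and given to 4 wild-type C57BL/6J mice. These recipients drank 2% dextran sulfate sodium (DSS), which injures the gut lining, for 7 days, and received FTY720, a drug that stops lymphocytes from leaving lymph nodes, on days 7, 10 and 13 (1 mg/kg each). On day 14 the lymph nodes draining the colon were sorted into divided CBir1 cells with diluted dye, undivided CBir1 cells that had kept it, and polyclonal CD4+ T cells that belonged to the recipients. All fractions came from DSS- and FTY720-treated mice and no untreated library was analysed here. Cells of 2 mice were pooled, in duplicate per the labels, but each fraction is represented by 1 peak list, so every difference below is between single libraries, without a replicate check or a p-value.

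Open chromatin away from genes commonly marks enhancers, short DNA elements that bind transcription factors and raise transcription of genes on the same chromosome. It also marks insulator sites bound by CTCF and the starts of genes that make no protein, such as those of long noncoding RNAs, microRNAs, transfer RNAs and ribosomal RNAs. In T cells, groups of intergenic enhancers surround cytokine, receptor and transcription factor genes. As a check of the sorted cells, a peak within 1 kb of a gene end was found for all 8 T cell genes examined (among them Cd3e, Cd4 and Lck) in every library. Of the B cell markers Ms4a1 and Pax5, the NK cell markers Ncr1 and Klrb1c and the myeloid markers Lyz2, Csf1r and Adgre1, none had such a peak in any library. Cd79a, Cd8b1 and Epcam had one in every library and Ebf1 in the divided and polyclonal libraries. The part of such cells in any result was not tested.

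The regions overlapped several microRNA genes, which are shown first because their sequences can be read directly. MicroRNAs are short RNAs that pair with messenger RNAs mainly through their seed, bases 2 to 8, and lower protein output. Of 320 microRNA genes lying between protein-coding genes, 20 were overlapped by 16 of the regions, and RefSeq held a mature sequence for 18 of them. The following are RefSeq mature sequences on build GRCm38.p6, the assembly of mm10, written 5′ to 3′ with the seed in capitals.
mmu-let-7i-5p: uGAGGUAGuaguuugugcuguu
mmu-miR-132-3p: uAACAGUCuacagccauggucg
mmu-miR-212-3p: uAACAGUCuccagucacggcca
mmu-miR-155-5p: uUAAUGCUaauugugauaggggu
mmu-miR-210-3p: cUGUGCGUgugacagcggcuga
mmu-miR-193a-3p: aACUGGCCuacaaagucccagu

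The seeds of miR-132-3p and miR-212-3p were the same, and both hairpins, at chr11:75173682-75173747 and chr11:75173388-75173478 on the plus strand, lay in 1 region at chr11:75173138-75173869. The summit pileup, the number of fragments stacked at the highest point of a peak, was 103 there in divided cells, 78 in undivided cells and 80 in polyclonal cells. The let-7i hairpin, chr10:122985640-122985724 on the minus strand, lay in a region with 133, 123 and 131 fragments in the same order. The region of miR-155, a microRNA induced on lymphocyte activation, spanned chr16:84713009-84714265 and held 78, 33 and 37 fragments. The region at miR-210, a microRNA induced by low oxygen, held 87, 49 and 52 fragments. Before scaling for depth, divided cells were the highest library at both, and also at the regions of the other printed microRNAs. The miR-210 region, chr7:141221474-141222280, overlaps only the first bases of the hairpin, chr7:141221384-141221493 on the minus strand. The printed miR-210-3p sequence lies outside that region. The miR-193a region held 45, 32 and 41 fragments, with little difference between libraries.

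To compare libraries of unlike depth, each pileup ratio was divided by the median ratio of all 31886 shared regions, which was 1.21 for divided over undivided, 1.19 for divided over polyclonal and 0.987 for undivided over polyclonal. The scaled divided over undivided ratio was 1.96 at miR-155 (95% counting interval 1.29 to 3.04) and 1.47 at miR-210 (1.03 to 2.13). At miR-132 and miR-212 it was 1.09 (0.808 to 1.49) and at let-7i 0.897 (0.696 to 1.16). Such intervals come from the fragment counts alone and cover counting error only. Fragments are not independent molecules where they were copied by PCR.

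Starts of long noncoding RNAs also lay in the regions. RefSeq windows of 300 bases, from 250 before to 50 after the start, are printed for 4 of them. Chaserr, a noncoding RNA that lowers the level of its neighbour Chd2, has the tallest start among genes with a name rather than a model number. Snhg8, a host gene of small nucleolar RNAs, and Rab10os, an antisense transcript named for Rab10, carry letters matching factor motifs, in capitals. Mir155hg is the host transcript of miR-155. Build GRCm38.p6 applies, and each sequence is on the strand of its gene.
Chaserr: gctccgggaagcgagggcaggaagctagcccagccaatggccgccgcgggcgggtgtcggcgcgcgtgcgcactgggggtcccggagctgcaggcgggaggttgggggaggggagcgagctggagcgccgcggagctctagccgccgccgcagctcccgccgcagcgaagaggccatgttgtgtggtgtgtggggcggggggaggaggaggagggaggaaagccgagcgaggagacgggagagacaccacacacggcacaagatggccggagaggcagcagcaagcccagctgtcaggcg
Snhg8: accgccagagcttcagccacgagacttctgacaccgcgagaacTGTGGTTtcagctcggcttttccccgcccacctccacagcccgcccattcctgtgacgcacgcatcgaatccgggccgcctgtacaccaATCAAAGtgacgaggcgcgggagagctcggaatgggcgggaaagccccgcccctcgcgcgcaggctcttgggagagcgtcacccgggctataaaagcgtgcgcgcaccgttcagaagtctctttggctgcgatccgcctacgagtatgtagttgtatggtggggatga
Rab10os: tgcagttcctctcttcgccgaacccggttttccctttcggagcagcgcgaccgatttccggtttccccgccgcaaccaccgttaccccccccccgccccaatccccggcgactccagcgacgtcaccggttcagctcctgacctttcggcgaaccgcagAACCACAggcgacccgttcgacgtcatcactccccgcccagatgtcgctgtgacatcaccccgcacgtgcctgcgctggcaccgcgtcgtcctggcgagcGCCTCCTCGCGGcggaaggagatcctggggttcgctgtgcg
Mir155hg: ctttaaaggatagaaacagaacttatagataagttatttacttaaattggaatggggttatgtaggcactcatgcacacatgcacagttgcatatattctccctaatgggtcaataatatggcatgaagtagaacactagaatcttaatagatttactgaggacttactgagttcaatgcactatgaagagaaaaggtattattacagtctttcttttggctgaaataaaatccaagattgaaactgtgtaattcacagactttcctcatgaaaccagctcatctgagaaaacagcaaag

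These windows lie at chr7:73558346-73558645 (minus strand), chr3:123508287-123508586 (minus), chr12:3235541-3235840 (plus) and chr16:84712773-84713072 (plus). In Snhg8 the capitals mark the RUNX motif TGTGGTT and, on the other strand, the TCF/LEF motif CTTTGAT, while in Rab10os they mark a RUNX match and a match to the CTCF core motif, both on the other strand. Chaserr and Mir155hg held none of the 7 motifs searched. GC content was 72.3% in the Chaserr window with 30 CpG pairs, and 34.3% in the Mir155hg window with 0 CpG pairs. Most of the Mir155hg window lies before its region, which begins at chr16:84713009, while the Chaserr window lies within its region. The Chaserr region held 285, 268 and 260 fragments (divided, undivided, polyclonal) and the Snhg8 region 146, 135 and 146. The Rab10os region held 145, 121 and 140. These 3 starts were of similar height in all libraries, unlike Mir155hg, whose start lies in the miR-155 region described above.

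Regions between genes were lower peaks than the shared regions at gene ends, and much like those inside genes. Their median summit pileup was 34 fragments in the divided library and 29 in both others. Inside genes (12080 regions) the medians were 39, 31 and 31, and within 1 kb of a gene end (10554 regions) they were 93, 73 and 78. Median width was 666 bp between genes, 681 bp inside genes and 1049 bp at gene ends. From the 25th to the 75th percentile the intergenic regions had 20 to 64 divided, 17 to 55 undivided and 17 to 52 polyclonal fragments. The strongest summits of the 3 libraries lay a median of 55 bp apart, and within 100 bp of each other in 72.8% of regions. Across the 9252 regions Spearman correlations of pileup were 0.839 for divided and undivided, 0.880 for divided and polyclonal and 0.913 for undivided and polyclonal, as a description of regions that share their local mappability and base composition. Most regions (8106, or 87.6%) had a deposited −log10 q of at least 5 in every library.

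**Figure D1:**
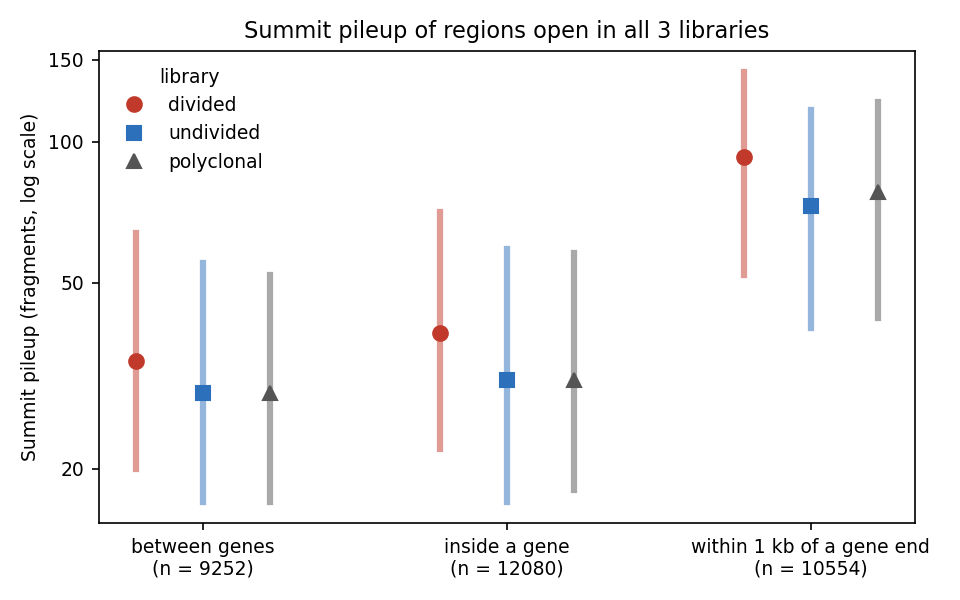
Summit pileup in fragments (log scale) of regions called in all 3 libraries, by their place relative to protein-coding genes. Points are medians and bars the 25th to 75th percentile over regions. The 9252 regions between genes have medians of 34, 29 and 29 fragments, against 93, 73 and 78 within 1 kb of a gene end.

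Intergenic position, like position inside genes, was less common among regions that every library shared than among those of fewer libraries. Between-gene regions made up 29.0% of regions called in all 3 libraries (Wilson 95% interval 28.5 to 29.5), 39.5% of the 8406 called in 2 libraries and 38.8% of the 15654 called in 1. Regions inside genes made up 37.9%, 50.6% and 52.4% in the same order. Those at gene ends went the other way, at 33.1%, 9.93% and 8.73%. The 9252 regions covered 6.65 Mb, and the number per chromosome ran from 235 on chromosome 19 to 683 on chromosome 2. Their median distance to the nearest protein-coding gene was 18141 bp, with 28 regions over 1 Mb from any. The 60 regions in the first 100 bp past the 1 kb margin had median pileups of 37, 27.5 and 31, and the 54 shared regions in the last 100 bp within it, which were not members, had 47, 45 and 43.5.

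The tallest intergenic peaks stood on high local background. Tallest, here and below, means the highest smallest pileup of the 3 libraries. That choice favours regions of like height in every library, so their likeness is a description and not a result. The region at chr14:124801559-124802239, 123873 bp from Fgf14, held 9889, 7811 and 7294 fragments, and that at chr7:145340927-145341456, 16868 bp from Mrgprd, held 8637, 7145 and 6616. The region at chr2:98666248-98667321, over 1 Mb from Lrrc4c, held 8353, 6426 and 6581. Their scaled divided over undivided ratios were 1.05, 1.00 and 1.08, with the libraries in proportion to the shared regions at large. The other 3 of the 6 tallest lay side by side near Col19a1, and the widest of them, chr1:24613184-24616110, held 8741, 8908 and 8318 fragments over a local background of 3548, 3514 and 3347. Its deposited fold enrichment was therefore only 2.46, 2.53 and 2.48. Of the 100 tallest regions, 79 had a local background at least 20 times the lowest of their library in some library, against 277 (2.99%) of all members. The part of that background in these heights was not tested.

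Among regions at least 500 bp wide under that background limit, a selection made after the values were seen, 3 of the 8 tallest are given. The region 8863 bp from Cd69, the early activation antigen, at chr6:129284238-129285111, held 285, 252 and 235 fragments. The region at chr13:110743970-110744545, 343126 bp from Plk2, held 454, 288 and 259, which was 1.31 times higher in divided than undivided cells (1.13 to 1.52). The region 2550 bp from Plaur, the urokinase receptor gene, held 238, 250 and 229.

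Divided and undivided CBir1 cells differed by at least 2-fold at some intergenic regions in either direction. A region was counted when the scaled ratio passed 2-fold and the higher library held at least 20 fragments. Divided cells were higher at 457 regions (4.94%, 4.52 to 5.40), against 3.87% of all shared regions, and lower at 435 (4.70%, 4.29 to 5.15), against 2.98% of all. Shared regions inside genes were higher in 4.93% and lower in 3.63%, and those at gene ends in 1.72% and 0.711%. Lower calls were thus more frequent between genes than in either other class over all pileups. Matched on pileup the order varied. Under 20 mean fragments, lower calls were 3.60% between genes, 3.72% inside genes and 2.47% at gene ends. From 20 to 40 they were 7.59%, 5.82% and 2.33%, and from 80 to 160 they were 13 of 1085, 13 of 1709 and 1 of 4008 regions. Among regions of 40 to 80 mean fragments, divided cells were higher at 3.13% and lower at 4.13% of intergenic regions, against 3.81% and 2.83% inside genes and 1.23% and 0.717% at gene ends. The split depends on the scaling: with each library's lowest background as the scale the counts were 244 higher and 923 lower, and without scaling 809 and 217. The median ratio of the intergenic regions was 0.958 as scaled, 0.772 by lowest background and 1.16 unscaled. A lower pileup can come from fewer open cells or from less opening per cell, which cannot be told apart in bulk libraries.

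Il17a, the signature cytokine gene of Th17 cells, had the region with the widest difference in favour of divided cells. This region, chr1:20743867-20744299, lies between Il17a (9371 bp away) and Il17f (32847 bp away) and held 110 divided, 6 undivided and 64 polyclonal fragments. The divided over undivided ratio was 15.2 (6.76 to 42.3), and polyclonal cells stood 10.5 times above undivided cells. Undivided cells were thus the low library. Bcl11b encodes a factor that maintains T cell identity, and the region 18622 bp from it, chr12:108022767-108023640, held 60, 6 and 21 fragments, a ratio of 8.29 (3.59 to 23.5). The region chr2:163102853-163103737, between Gtsf1l and Tox2, held 229, 23 and 57, a ratio of 8.26 (5.37 to 13.3). The region 25578 bp from Il10, the anti-inflammatory cytokine gene, at chr1:130993543-130994267, held 182, 19 and 71, a ratio of 7.94 (4.94 to 13.5). In each of these regions, the Il17a one included, the polyclonal library lay between the CBir1 libraries.

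The regions widest in the other direction were lower peaks in divided cells. The region at chr8:86797740-86798203, between Siah1a and N4bp1, held 14 divided, 90 undivided and 84 polyclonal fragments, so undivided cells were 7.75 times higher (4.39 to 14.7). That at chr12:107208983-107209533, 700870 bp from Bcl11b and 96847 bp from the predicted gene Gm52008, held 7, 36 and 18, a ratio of 6.20 (2.72 to 16.5). The nearest protein-coding gene of this region is Gm52008, and a link to Bcl11b was not tested. The region 145105 bp from Tle3, a corepressor gene of Wnt signalling, at chr9:61226153-61227221, held 13, 61 and 35, a ratio of 5.66 (3.08 to 11.2). The region 131442 bp from Prkcq, which encodes protein kinase C theta of T cell receptor signalling, at chr2:11039940-11040463, held 13, 56 and 46, a ratio of 5.20 (2.81 to 10.4). Divided cells were lowest in all 4, and these 8 regions were chosen for their ratios, which are a description.

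**Figure D2:**
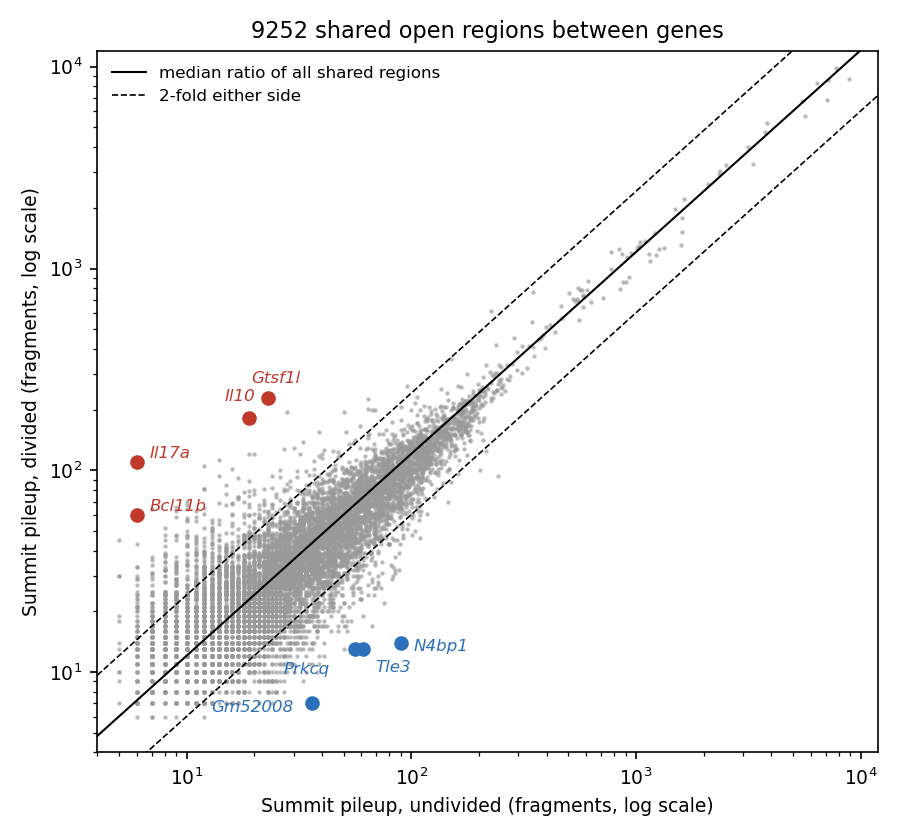
Summit pileup in divided (vertical) against undivided cells (horizontal) for the 9252 regions, in fragments on log axes. The solid line is the median ratio of all shared regions (1.21), dashed lines are 2-fold either side, and coloured points are the 4 regions with the widest ratio in each direction, labelled by the nearest gene; the Il17a-side region has 110 against 6 fragments.

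Divided and undivided cells differed more often the farther a region lay from genes. Over 1 to 5 kb from a gene, 3.81% of 1599 regions were at least 2-fold higher in divided cells and 2.75% lower. Beyond 100 kb, 6.16% of 1299 were higher and 7.08% lower. The median scaled ratio went from 1.00 (0.983 to 1.03) in the nearest bin through 0.973 and 0.940 to 0.904 (0.884 to 0.933) in the farthest, or from 1.21 to 1.09 unscaled. Pileup moved with distance too, since the divided median was 39 fragments in the nearest bin and 31 in the farthest. Restricted to regions of 20 to 80 mean fragments, the median ratios were 1.02, 0.978, 0.936 and 0.893, and the lower calls ran from 3.24% to 9.93%. For divided against polyclonal cells the median ratio moved less, from 1.02 to 0.981, and for undivided against polyclonal cells it went from 1.01 to 1.06. The 2-fold calls of those pairs also rose from the nearest to the farthest bin. Divided over polyclonal, higher calls went from 1.81% to 4.77% and lower calls from 1.69% to 4.46%. Undivided over polyclonal, higher calls went from 0.688% to 2.39% and lower calls from 0.876% to 2.46%. Segments of receptor and antibody genes did not count as protein-coding. Most of the 77 regions of the T cell receptor alpha locus and 68 of the antibody heavy chain locus lay beyond 100 kb. Over all distances, these loci held 1 and 3 higher and 8 and 1 lower calls for divided over undivided cells. Divided over polyclonal, they held 1 and 7 higher and 12 and 0 lower. Undivided over polyclonal, they held 6 and 4 higher and 8 and 0 lower. Their part in these rises was not tested.

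**Figure D3:**
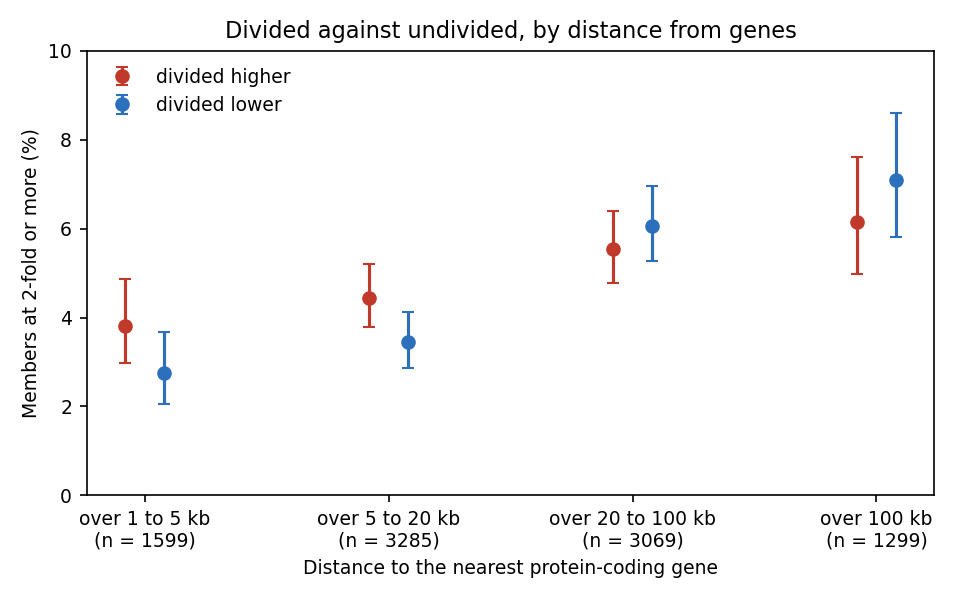
Share of regions (%) at least 2-fold higher (red) or lower (blue) in divided than in undivided cells, by distance to the nearest protein-coding gene. Bars are Wilson 95% intervals, which cover counting error only. The share lower in divided cells goes from 2.75% at over 1 to 5 kb to 7.08% beyond 100 kb.

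Genes of T cells had intergenic regions near them more often than genes at large. Of 138 autosomal genes on 10 T cell lists, 92 (66.7%) were the nearest protein-coding gene, within 100 kb, of at least 1 region, against 4307 of 20661 genes of all kinds (20.8%). The naive and quiescence list had such a region at all 16 of its genes and 91 regions in all. Btg1, which restrains proliferation, had 16 of them, S1pr1, the sphingosine phosphate receptor used for lymph node exit, 13, Foxo1, a quiescence factor, 10, and the genome organiser gene Satb1 9. T cell identity genes had 54 regions at 12 of 18 genes, led by Thy1, a surface glycoprotein, with 11 and Ets1, a lymphoid transcription factor, with 8. Activation and survival regulators had 47 regions at 16 of 18 genes. The helper subset lists were lower: Th1 6 of 13 genes, Th17 6 of 14 and Th2 5 of 11. Treg genes reached 9 of 14 and Tfh genes 7 of 9. Of the markers of other cell types, 14 of 44 genes (31.8%) had a region, namely 4 of 8 CD8 T and NK cell markers, 5 of 14 myeloid and dendritic, 4 of 12 epithelial and stromal and 1 of 10 B cell markers (Cr2). The CD8 T and NK share was thus above those of the Th1, Th17 and Th2 lists.

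Regions near T cell list genes were at least 2-fold higher in divided than undivided cells in 23 of 322 cases (7.14%) and lower in 15 (4.66%), against 4.74% and 4.31% of the 7953 regions within 100 kb of any gene. The Treg list had 4 higher and 0 lower of 21 regions, with a median ratio of 1.25. The Th17 list had 3 higher and 0 lower of 12, and the Th2 list 0 higher and 2 lower of 12, with a median of 0.912. Tfh genes had 2 higher and 0 lower of 23, and inhibitory receptor genes 1 and 0 of 18. Th1 genes went both ways, with 3 higher and 4 lower of 26, as did migration and gut homing genes, with 2 and 2 of 18 and a median of 0.823. Activation and survival regulators had 3 and 2 of 47. Naive and quiescence genes had 3 higher and 4 lower of 91, with a median ratio of 0.902, and T cell identity genes 2 higher and 1 lower of 54. The median over the 7953 regions was 0.967. With the lowest background as the scale 7 of the 23 higher regions fell under 2-fold, and without scaling 9 of the 15 lower ones did. The lists were written with earlier results of these data known, and their counts are small.

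The 23 regions higher in divided cells, chosen by their ratios, included several near effector and costimulatory genes. Ifng, the Th1 cytokine gene, had 3 of its 6 regions among them, 1 of which held 43, 6 and 20 fragments, a ratio of 5.94 (2.52 to 17.1). Gpr15, a colon-homing receptor gene, had a region with 121, 19 and 43 fragments (5.28, 3.24 to 9.07) and Il21, a helper cytokine gene, one with 85, 15 and 31 (4.70, 2.69 to 8.76). At each of these the undivided library was the lowest. The region 4398 bp from Ctla4, an inhibitory receptor gene, held 52, 12 and 25 fragments, and the one 27208 bp from Icos, a costimulatory receptor gene, 43, 10 and 15. The region 37738 bp from Cd69 held 120, 32 and 46, a ratio of 3.11 (2.09 to 4.75). Others lay near Ahr, Irf4, Cd44, Bach2, Id3, Cd200, Lat, Nrp1, Nfatc1 and Btg1, and a region closer to Il10 (51, 21 and 29 fragments) also passed 2-fold.

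The 15 regions lower in divided cells were chosen by their ratios too. The region 24205 bp from Satb1 held 19, 50 and 40 fragments, so undivided cells were 3.17 times higher (1.84 to 5.70). The region 7206 bp from Prdm1, which encodes the repressor Blimp-1 of effector cells, held 31, 74 and 55, and undivided cells were 2.88 times higher (1.87 to 4.53). Lef1, a factor of naive T cells, had 2 such regions, one of them with 24, 55 and 46 fragments. Ccr8, a chemokine receptor gene of Th2 and regulatory cells, had a region with 48, 101 and 79. In each of these the polyclonal library lay between the others, nearer to the undivided one. Ifngr1, which encodes an interferon gamma receptor chain, also had 2, and the remaining ones lay near Socs3, Runx3, Eomes, Runx1, Itga4, Il4ra, Foxo1 and Cxcr4.

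For each list, the region near a member gene with the highest smallest pileup of the 3 libraries is given here. That choice passes over regions that were low in any library. These regions differed by less than 2-fold between any libraries, as scaled, which the choice favours and which is not a result. The region 21386 bp from Ifng, at chr10:118418726-118419660, held 159, 134 and 143 fragments, a divided over undivided ratio of 0.984 (0.777 to 1.25). The region 2319 bp from Pdcd1, the PD-1 gene, held 296, 229 and 221, and that 30423 bp from Tcf7, the gene of TCF-1, held 266, 257 and 234. The region between Il4ra and Il21r held 178, 162 and 164. The region near Cxcr4, a chemokine receptor gene, held 131, 157 and 133. At 0.692 (0.544 to 0.878) it was the farthest from 1 of the 10 list regions chosen this way. The regions near Irf4, Tnfrsf18, Izumo1r and Ets1 had divided over undivided ratios between 0.790 and 1.04. Divided over polyclonal, the Izumo1r region was at 1.28 (0.998 to 1.65).

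**Figure D4:**
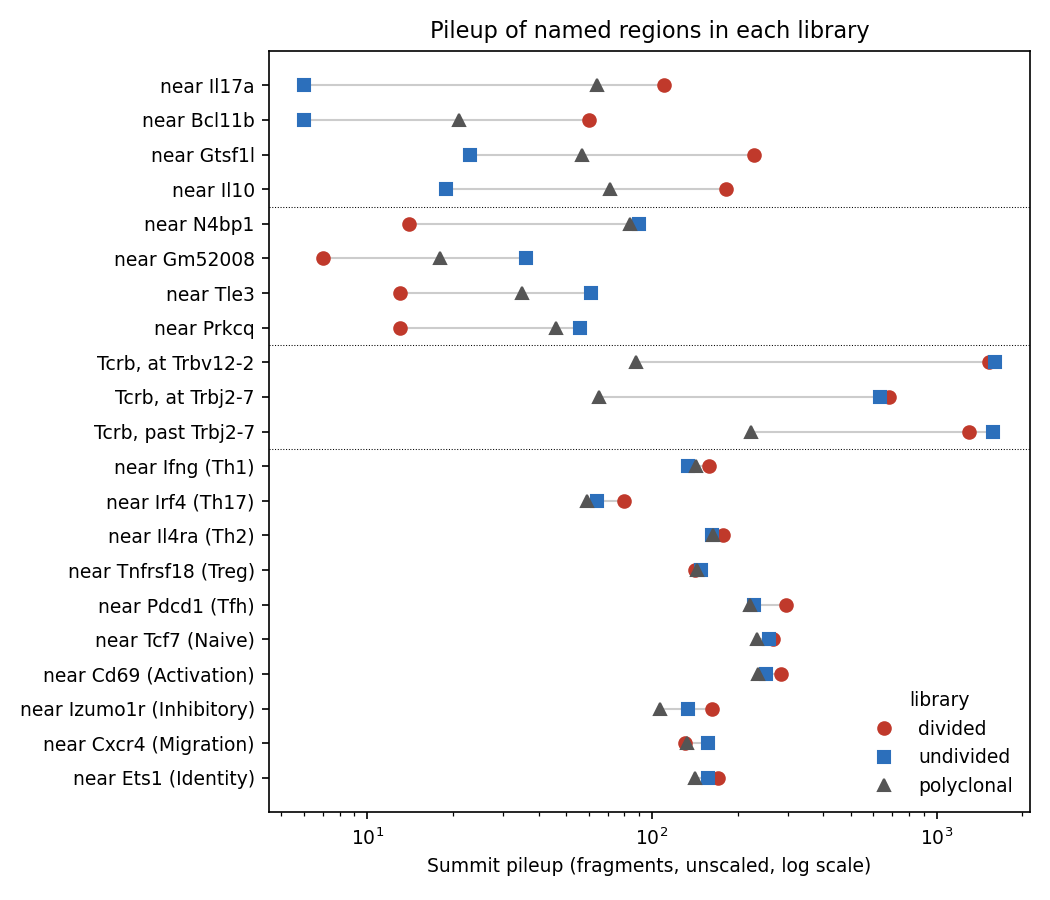
Unscaled summit pileup (fragments, log scale) of named regions in each library. From the top are the 4 regions highest in divided over undivided cells, the 4 highest in the reverse and 3 at the T cell receptor beta locus (Tcrb). Below them is the region of highest smallest pileup for each T cell list, a choice that favours like heights. The Il17a-side region spans 6 to 110 fragments, while the Tcf7-side region stays between 234 and 266.

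Against polyclonal cells, fewer regions stood apart. Divided cells were at least 2-fold higher than polyclonal cells at 270 regions (2.92%, against 2.31% of all shared regions) and lower at 261 (2.82%, against 1.87%). With the lowest background as the scale these were 121 and 501, and without scaling 613 and 126. Undivided cells were higher than polyclonal cells at 113 regions (1.22%, against 0.844%) and lower at 136 (1.47%, against 1.23%), with splits of 158 to 116 and 112 to 156 under those 2 scalings. The comparisons share libraries and are not independent of each other.

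The T cell receptor beta locus held the widest pileup differences between the CBir1 fractions and polyclonal cells. This locus rearranges gene segments into the beta chain, and CBir1 cells carry a receptor transgene. The region at chr6:41118060-41119023, on the segment Trbv12-2, held 1524 divided, 1606 undivided and 88 polyclonal fragments. The ratio to polyclonal cells was 14.6 in divided and 18.5 in undivided cells. The region at chr6:41543812-41545821, on the joining segment Trbj2-7, held 683, 634 and 65, and that at chr6:41553117-41555204 held 1301, 1584 and 223. Both CBir1 libraries were high and the polyclonal one low at all 3. The local background moved the same way, at 112, 117 and 10.1 fragments around Trbv12-2. It was 75.7, 85.0 and 10.6 around Trbj2-7, and 129, 159 and 27.7 around the third region. Deposited fold enrichment over that background differed less, at 13.5, 13.6 and 8.04 for Trbv12-2. It was 8.91, 7.39 and 5.69 for Trbj2-7, and 10.0, 9.88 and 7.81 for the third region. The part of the transgene in these pileups was not tested. Of 17 regions in the locus, 14 had a divided over polyclonal ratio above 1 and 5 passed 2-fold, with 0 at 2-fold lower. In undivided over polyclonal cells, 13 of the 17 were above 1 and 7 passed 2-fold. The alpha locus leaned the other way in divided over polyclonal cells, with 20 of 77 regions above 1, 1 at 2-fold higher and 12 at 2-fold lower. In undivided over polyclonal cells it was more even, with 33 of 77 above 1, 6 higher and 8 lower. Among the 12 alpha locus regions lower in divided than polyclonal cells, the one on Trav15n-2 held 16, 52 and 69 fragments. Polyclonal cells were 5.13 times higher than divided cells there (2.95 to 9.47). The Trac region, at the alpha constant gene, held 208, 114 and 121 fragments.

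Outside the receptor loci, 2 regions already described were among the widest against polyclonal cells. Polyclonal cells stood 10.5 times above undivided cells at the Il17a-side region and 7.13 times above divided cells (4.02 to 13.6) at the N4bp1-side one. At lower pileups, the region 46651 bp from Fhdc1 held 45, 9 and 6 fragments, and divided cells were 6.31 times higher than polyclonal cells. The region 17665 bp from Hrh2, a histamine receptor gene, held 22, 33 and 8, with undivided cells 4.18 times higher. Polyclonal cells were 5.94 times higher than divided cells (2.75 to 14.7) at a region 5299 bp from Cdkn2aipnl, with 8, 18 and 40 fragments. They were 5.81 times higher (2.80 to 13.5) at one near Ankrd60, with 9, 24 and 44. Divided cells were the lowest library at both. Polyclonal cells also exceeded undivided cells at regions near Lrpap1 (24, 8 and 36), Eef2kmt (45, 5 and 20) and Fabp5 (14, 8 and 31), by 3.83 to 4.44 times.

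RefSeq genes not classed as protein-coding, called noncoding here, overlapped 2696 of the regions (29.1%). These genes include segments of the receptor and antibody loci, although such segments encode parts of protein chains. Kinds of gene differed in how often they held a region. Ribosomal RNA genes led, with 27 of 54, and transfer RNA genes had 116 of 317 (36.6%, 31.5 to 42.0), although both are short, with median lengths of 121 and 72 bp. Long noncoding RNA genes, at a median of 8694 bp, had a region in 1224 of 7107 cases (17.2%). Small nuclear RNA genes had one in 30 of 579 cases (5.18%), small nucleolar RNA genes in 13 of 823 (1.58%) and pseudogenes in 168 of 7036 (2.39%). The V segments of the receptor and antibody loci had one in 115 of 547 cases (21.0%). The 76 regions on transfer RNA genes held a median of 67, 58 and 57.5 fragments, above the 34, 29 and 29 of all intergenic regions, and 26 of them covered 2 or more such genes.

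**Figure D5:**
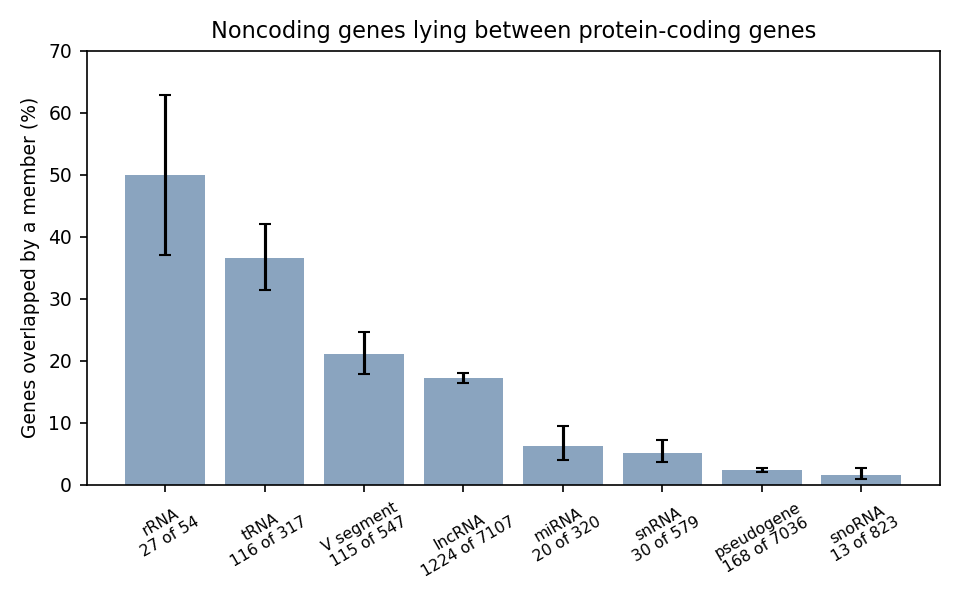
Share (%) of RefSeq genes not classed as protein-coding, among those lying between protein-coding genes, that overlap a shared open region, by kind of gene. V segments, which encode parts of receptor and antibody chains, are shown among them. Bars carry Wilson 95% intervals, and the numbers under them give genes with a region of all such genes. Transfer RNA genes reach 36.6%, against 2.39% of pseudogenes.

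The ribosomal RNA regions had a scaled divided over undivided ratio below 1 in every case. RefSeq names 22 of them as 5S genes, whose RNA is part of the large ribosomal subunit, and 5 by model numbers in the same cluster. The scaled divided over undivided ratio ranged from 0.521 to 0.854 over the 27, with a median of 0.644 (0.611 to 0.721), and 26 of them held fewer raw fragments in the divided library. None passed 2-fold. Transfer RNA regions had a median ratio of 0.931 (0.881 to 0.997) and small nuclear RNA regions 0.860 (0.793 to 0.952). Unscaled, both medians pass 1 (1.04 for small nuclear RNA), while the ribosomal one is 0.776. Divided over polyclonal, the ribosomal median was 0.889 scaled and 1.06 unscaled, with more raw divided than polyclonal fragments at 16 of the 27. Undivided over polyclonal it was 1.38 (1.17 to 1.48), with 25 of 27 above 1. Copies of such genes are near identical, so reads may be split or misplaced among them, and the 27 are not independent.

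Among named noncoding genes, Pvt1, a long noncoding RNA next to Myc, spanned 13 regions. The tallest, chr15:62169217-62170344, held 233, 192 and 196 fragments, with a scaled divided over undivided ratio of 1.01. Another, at chr15:62239899-62240488, 249538 bp from Myc, held 64, 7 and 19, a ratio of 7.58. The Pvt1 span thus held regions that differed between libraries and regions that did not. The pseudogenes Pisd-ps1 and Pisd-ps2 had 4 regions each, with up to 708 and 543 divided fragments over backgrounds above 80 times the lowest. Rn18s-rs5, a ribosomal RNA related pseudogene, and AY036118 on chromosome 17 shared a region of 616, 227 and 319 fragments, where divided cells were 2.25 times above undivided cells. This is the opposite direction to the 5S regions, on a background 207 times the lowest. In the antibody heavy chain locus (Igh) 68 regions were found, with median pileups of 35.5, 31.5 and 25. The tallest of them, at chr12:113424299-113425406, held 4007, 3139 and 2263 fragments on a background 231 times the lowest.

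Starts of noncoding genes lay in 388 of the regions. These were taller than the others, with median pileups of 59, 46.5 and 46 against 34, 29 and 28, and wider, at 873.5 against 659 bp. Of 7103 noncoding starts between genes, 449 (6.32%) lay in a shared region. The tallest named start after Chaserr was that of Mir22hg, the host of miR-22, with 197, 186 and 220 fragments. Dleu2, a noncoding RNA that carries a microRNA cluster, had 184, 140 and 125, and Dancr 145, 141 and 117. Of the regions with a start, 3.09% (1.78 to 5.33) were at least 2-fold higher in divided than undivided cells and 3.61% (2.16 to 5.96) lower, against 5.02% (4.58 to 5.49) and 4.75% (4.33 to 5.21) of those without. These intervals overlap, and the regions with a start were also the taller ones, as given above. Morrbid, a noncoding RNA that regulates Bcl2l11, had a start region with 66, 40 and 52 fragments.

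The sequence at open noncoding starts had more GC and more CpG pairs than that at closed ones. Median GC content of the 300-base windows was 53.3% for the 449 starts in a shared region and 46.7% for the 6562 in no region, and the median number of CpG pairs was 8 and 3. The CTCF core motif was found in 7.57% of open starts (5.47 to 10.4), 1.01% of closed ones and 3.48% of all 31365 starts of any gene. The RUNX motif TGTGGTT was in 11.1% (8.55 to 14.4), 6.42% and 5.32%, the KLF motif GGGCGTGG in 5.79%, 1.16% and 5.45%, and the ETS motif CCGGAAGT in 2.23%, 1.11% and 3.95%. Shares of the AP-1 motif TGANTCA (10.7%, 10.4% and 7.85%) and the TCF/LEF motif CTTTGAT (4.90%, 5.18% and 3.76%) were alike in open and closed starts. The NRF1 motif was in 2 of the 449. All were searched on both strands with no check for overlap between motifs. GC content differed between the groups as given, and a match is a description of letters. Several starts can belong to 1 gene (449 starts of 398 genes).

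Many of the intergenic regions were grouped. Joining neighbouring regions by the gap commonly used to group enhancers (a 5 kb gap gave 210 stretches) gave 660 stretches of at least 3, which held 2543 regions (27.5%), and 112 stretches held 5 or more. The largest, with 31 regions over 91.1 kb between Gas8 and Rhou, at chr8:123538517-123629651, holds the 27 ribosomal RNA regions, with summed pileups of 2001, 2490 and 1957 and a ratio of 0.666. The next, 25 regions at the start of chromosome 9 (chr9:3000010-3038277), summed to 22218, 17453 and 17135. A stretch of 11 between Gm40363 and Pdia4 on chromosome 6 summed to 8213, 8459 and 7753. Undivided cells had the highest sum in the first and the last of these. The lowest pileup of a region across libraries had a median of 548 in the chromosome 9 stretch and 860 in the Gm40363 to Pdia4 stretch. Without the members at 20 times the lowest background or more, 618 stretches were found. Whether any stretch acts as an enhancer was not tested. A stretch of 12 between Rasgrp1, an exchange factor of T cell receptor signalling, and Thbs1, at chr2:117389501-117450878, summed to 839, 702 and 722, a ratio of 0.991. The 11 regions between Ddr1 and Ier3 had a ratio of 0.877. Smaller stretches flanked further lymphocyte genes, with 10 regions between Ift57 and Cd47, 9 between Ets1 and Kirrel3, and 8 each between Tnfsf18 and Fasl, Rpl11 and Id3, and Nectin1 and Thy1.

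The regions farthest from any protein-coding gene were few and unlike each other. The farthest, chr5:60042733-60043086, lay 1765757 bp from G6pd2 and held 794, 846 and 807 fragments, with a deposited fold enrichment of 31.7, 33.5 and 33.0. The region at chr14:82753349-82753539, 1690024 bp from Pcdh17, held 12, 8 and 10. The region at chr1:101901892-101903037, 1411293 bp from Cntnap5b, held 84, 58 and 47. Each had a scaled ratio under 2-fold in both CBir1 comparisons.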

How the data were processed

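ATAC-seq was done on 3 sorted fractions, 1 peak list each. Per the submitters' processing notes the tools were MACS2 2.1.0, Bowtie2 2.3.2, Trimmomatic 0.33, cutadapt 1.12, bcl2fastq 2.17, SAMtools and Picard, and the build was mm10. A shift of reads to the transposase cut site, or its absence, was not given in the sources used here. Deposited rows hold a peak's position, a score, its fold enrichment (a linear ratio to the local background) and the −log10 of its p-value and q-value. Deposited summit positions were also used. The lists held 46764 divided, 40781 undivided and 43327 polyclonal peaks on chromosomes 1 to 19. Without read totals, summit pileups and backgrounds were solved for from 2 deposited values, the fold, as (pileup + 1)/(background + 1), and the −log10 p-value, as a Poisson tail. A whole number within 0.001 was found for over 99.99% of peaks (7 without, at 5322 fragments or more). The lowest background was 1.21, 0.808 and 0.865 fragments, and this depth limits low pileups.

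The members and gene lists were chosen with earlier results of these data known. Gene spans came from RefSeq (GRCm38.p6, the assembly of mm10). Named regions were the 6 with the highest smallest pileup, the 4 of widest ratio per pair and direction, and 5 stretches of most regions. The 3 farthest from genes were named too. Per T cell list, and for 8 noncoding genes, the regions were again those of highest smallest pileup. Other regions were named after their values were seen. Scripts ran in Python 3.11.15 with pandas 2.3.3, numpy 2.4.6, scipy 1.17.1 and matplotlib 3.10.9 and were tested on simulated data. Ratio intervals are exact conditional intervals on fragment counts. No test was run, with 1 library per group. The planned motif search at region summits was not run, as no genome sequence was used here; RefSeq start windows were searched instead, a choice made after seeing the files. Alternatives covered the peak threshold, what counts as shared, the gene margin, the genes used, the scaling, the pileup minimum, the joining distance and the distance to a gene.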

Additional observations from a re-analysis of the deposited data

How the results depend on the processing

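With 1 library per fraction nothing could be left out, and counting error is the only error given. No paired analysis was possible because each fraction is 1 library and no test was run. Requiring a −log10 q of at least 5 in every library gave an intergenic share of 28.2%, a median width of 688 bp and median pileups of 39, 33 and 33 (divided, undivided, polyclonal). Requiring strongest summits within 100 bp gave 29.7%, 643 bp, pileups of 37, 32 and 32, 294 regions higher in divided than undivided cells, 174 higher in divided than polyclonal and 86 lower in undivided than polyclonal cells, and 356 stretches. A 5 kb margin gave 24.0%, 673 bp, a median distance of 25387 bp and a divided pileup of 33. Bounding by all RefSeq genes gave 19.6%, 652 bp, 8336.5 bp, pileups of 32.5, 27 and 27, 72 higher and 90 lower in undivided than polyclonal cells, 338 stretches and 44.9% of T cell list genes with a region; members at noncoding genes cannot occur under it. Scaling by lowest background gave 244 higher and 923 lower for divided over undivided cells and 121 and 501 for divided over polyclonal cells, and no scaling gave 809, 217, 613 and 126. Joining within 5 kb gave 210 stretches, and genes within 20 kb gave 57.2% of list genes. Without the members at 20 times the lowest background or more, an alternative chosen after seeing the data, the divided pileup was 33. The other 60 values of this kind stayed near the main ones: counts within 1.5 times, medians and shares within their intervals. The 24 ratios of the 4 widest regions per pair and direction stayed above 2-fold under both other scalings, the lowest at 3.62. Of the T cell list regions, 7 of the 23 higher in divided cells fell under 2-fold by lowest background and 9 of the 15 lower ones when unscaled, and 0 reversed, a check added after seeing the data. The motif search at summits and its alternatives were not run.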
